A study of Mus musculus with 20 samples.

Results

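The genes described here are the 377 that fell between day 0 and day 14 of differentiation in each of 4 mouse iPSC lines. They were selected on the data themselves: the mean count had to be 10 or more, and log2(CPM + 1) had to be lower by 1 or more at day 14 than at day 0 in every line. CPM is counts per 1000000 after scaling by trimmed mean of M values (TMM). Of 55573 genes in the table, 16516 reached the count minimum, so the 377 are 2.28% of the tested genes. By the mirror criterion, 518 genes rose in every line.

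RNA-seq was collected from embryoid body (EB) cultures on days 0, 3, 5, 7 and 14, with 1 library per line and day and 20 libraries in all, each of 20294981 to 27708036 rounded counts. 2 lines were wild type (WT#1-4 and WT#20D-17) and 2 were knockout for Nox4, an NADPH oxidase that makes hydrogen peroxide (Nox4-/- #5-8 and Nox4-/- #5-23). The study describes its iPSC lines as embryonic fibroblasts reprogrammed with retroviral Oct4, Sox2, Klf4 and c-Myc and selected with puromycin. They were kept with LIF on mitotically blocked fibroblast feeders, and EBs formed in hanging drops without LIF and were plated on gelatin. The study's text names WT#1-4 and both Nox4-/- lines but not WT#20D-17, so the history of WT#20D-17 is not given there. The labels call day 0 iPSCs, and the culture text of the labels counts days from plating and ends at a different last day than the titles, so the exact zero point of the series cannot be told from them. The study's methods isolate embryonic fibroblasts from midgestation CF-1 embryos, and the stock of the Nox4-/- mice is not given in the sources used here.

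Nox4 was at 0.148 to 0.882 CPM in the 5 libraries of WT#1-4, at 2.6 to 8.96 CPM in those of WT#20D-17, and at no more than 2 counts in any Nox4-/- library. The labelled cell type was borne out by its markers in 1 line. WT#20D-17 held all 10 pluripotency markers at 1 CPM or more on day 0, among them Nanog at 379 CPM, Esrrb at 122 CPM and Dppa5a at 893 CPM. Esrrb and Zfp42 stayed under 1 CPM on every day in the other lines, as did Nanog in WT#1-4 and Nox4-/- #5-23 and Lin28a and Utf1 in both Nox4-/- lines. Counts of Pou5f1, Sox2, Klf4 and Myc cannot be told apart from those of the reprogramming vectors, and Pou5f1 still stood at 3780 CPM on day 14 in Nox4-/- #5-23. On day 0 Klf4 stood at 26.2 CPM in WT#20D-17 and at 653 to 836 CPM in the other lines. Myc stood at 50.4 CPM in WT#20D-17 and at 530 to 1350 CPM in the others. Without the vector genes, the summed pluripotency markers on day 0 came to 3030 CPM in WT#20D-17 and to 21.7, 44.0 and 44.7 CPM in WT#1-4, Nox4-/- #5-8 and Nox4-/- #5-23. The falling genes are thus shared by a line that carried the endogenous pluripotency markers and 3 lines in which 6 or 7 of the 10 were under 1 CPM on day 0.

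Dividing cells copy their DNA once per cycle. The origin recognition complex, CDC6 and the MCM2 to MCM7 ring license replication origins, polymerases and the PCNA clamp copy the strands, and folate and nucleotide enzymes supply the building blocks. Ribosome assembly runs beside it in the nucleolus, where RNA polymerase I makes the ribosomal precursor RNA and nucleolar factors such as nucleolin and NOP56 process it. Mouse pluripotent stem cells are known for short cycles, with most cells in S phase, and for high rates of both processes, and cycles commonly lengthen as the cells differentiate. Such genes often share promoter elements, the E2F element in replication genes and the CACGTG E-box, bound by MYC and its relatives, in genes of ribosome assembly.

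The letters of these elements were searched on both strands of the RefSeq promoter windows (GRCm38.p6, 250 bases before to 50 after the annotated start), in the 246 members and 9289 tested genes that have a single window. E2F letters (TTTCCCGC, TTTCGCGC, TTTGCCGC or TTTGGCGC) were in 36 of the 246 members, 14.6%, beside 4.13% of the tested genes and 2.34% of the 299 risers with a window. Among the 26 replication members with a window, 12 held them (46.2%). The E-box CACGTG was in 15.4% of members and 9.86% of tested genes, and in 14 of 43 ribosome biogenesis members (32.6%). CCAAT letters (CCAATC or CCAATG) were in 39.4% of members and 31.7% of tested genes. The octamer ATGCAAAT was in 1.22% of members and 1.58% of tested genes, the SOX letters AACAATG in 2.44% and 1.81%, and the ESRRB letters TCAAGGTCA in 0 of 246 and 0.237%. KLF letters (CCCCACCC) were in 14.6% and 12.8%, NRF1 letters (TGCGCATGC) in 3.25% and 3.01%, and TATAAA in 8.13% and 7.16%. E2F letters on the 2 strands can overlap each other, and a match is letters in a window, not a bound site.

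The stretches below are those of replication and ribosome biogenesis members whose E2F letters or E-box (capitals) begin 30 or more bases before the start and which touch no annotated exon; they show the elements the shares count. Those of Mcm5 (chr8:75109316-75109407, plus strand), Mcm6 (chr1:128359706-128359855, minus strand), Pola1 (chrX:93632246-93632333, minus strand), Nol11 (chr11:107189382-107189464, minus strand) and Utp14b (chr1:78658337-78658422, plus strand) read, 5′ to 3′ on the strand of the gene:
Mcm5: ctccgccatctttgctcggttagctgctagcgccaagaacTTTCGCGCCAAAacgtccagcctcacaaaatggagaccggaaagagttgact
Mcm6: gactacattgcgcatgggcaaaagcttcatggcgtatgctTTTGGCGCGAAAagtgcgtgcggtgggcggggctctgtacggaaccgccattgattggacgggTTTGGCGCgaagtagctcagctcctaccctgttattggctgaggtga
Pola1: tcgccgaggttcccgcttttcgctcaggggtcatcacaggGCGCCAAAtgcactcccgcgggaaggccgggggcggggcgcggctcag
Nol11: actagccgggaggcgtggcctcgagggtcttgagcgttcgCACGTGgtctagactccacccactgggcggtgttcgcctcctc
Utp14b: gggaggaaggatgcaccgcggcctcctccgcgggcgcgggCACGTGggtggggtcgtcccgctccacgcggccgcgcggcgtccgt

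In Mcm5 the first match begins at base -153 counted from the start, with a second, overlapping one on the other strand at -149. In Mcm6 matches begin at -110, -106 and -47, and in Pola1 at -138. The E-boxes of Nol11 and Utp14b begin at -43 and -63. Of the 14 ribosome biogenesis members with an E-box, the first one lay after the annotated start in 9. Of the 12 replication members with E2F letters, the first match lay after the start in 4 and 30 or more bases before it in 4.

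Together the members made up a smaller share of each library at day 14 than at day 0. They held 5.53%, 6.49%, 6.1% and 6.5% of all counts on day 0 in WT#1-4, WT#20D-17, Nox4-/- #5-8 and Nox4-/- #5-23. On day 14 they held 1.35%, 1.81%, 2.0% and 2.17%. The mean change over the 4 lines ranged from -4.27 to -1.1 on the log2(CPM + 1) scale with a median of -1.79, and the median SD between lines was 0.472. The deepest fall among the 4 lines was in WT#1-4 for 210 members, in WT#20D-17 for 86, in Nox4-/- #5-8 for 49 and in Nox4-/- #5-23 for 32. In bulk RNA, fewer cells of a kind and less RNA per cell cannot be told apart, and CPM is a share of each library rather than an amount per cell.

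The share of genes meeting the criterion in 1 line alone was 17.3% in WT#1-4, 17.1% in WT#20D-17, 12.2% in Nox4-/- #5-8 and 11.0% in Nox4-/- #5-23. When the genes were chosen on 3 lines only, 86.1% of 438 genes also fell by 1 or more in WT#1-4, 77.3% of 488 in Nox4-/- #5-23, 62.5% of 603 in Nox4-/- #5-8 and 49.3% of 765 in WT#20D-17. In each case the share in the left-out line was above the share of all tested genes in that line. WT#20D-17 was the line that kept the most genes off the list, since 765 would meet the criterion without it.

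Just inside the threshold were Rbm19, a factor of ribosomal RNA processing, with a smallest fall of -1.0 in Nox4-/- #5-8, Pold1, the catalytic subunit of DNA polymerase delta, with -1.0014 in WT#20D-17, and Smarcad1, a chromatin remodeler, with -1.0027 in Nox4-/- #5-23. Just outside were Txnrd1 (-0.9999 in WT#1-4), Noc4l (-0.9989 in Nox4-/- #5-8) and Fastkd2 (-0.9986 in Nox4-/- #5-23). The smallest falls of the genes on either side of the criterion thus differed by less than the median SD between lines. In other lines the genes lay further apart, as in WT#1-4 with -2.4065 for Rbm19 and -0.9999 for Txnrd1.

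**Figure D1:**
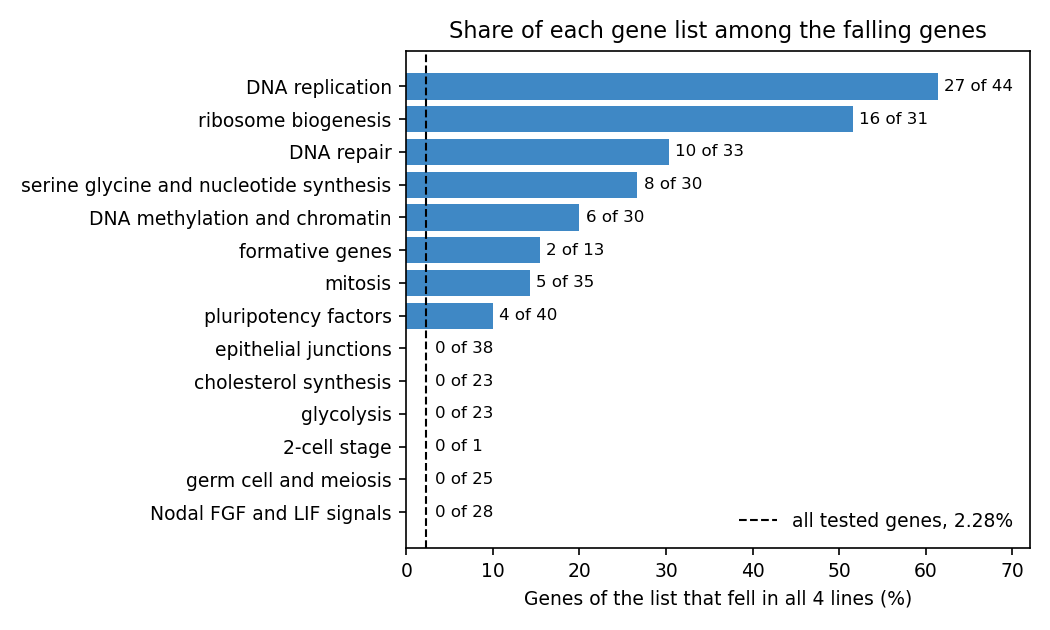
Horizontal bars give the percentage of tested genes of each of 14 gene lists that fell by 1 or more on the log2(CPM + 1) scale in all 4 lines, with the count beside each bar and the 2.28% of all tested genes as a dashed line. DNA replication (27 of 44) and ribosome biogenesis (16 of 31) hold the longest bars, and 6 lists hold none.

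Against the 2.28% of all tested genes, 61.4% of a DNA replication list (27 of 44) and 51.6% of a ribosome biogenesis list (16 of 31) were members. DNA repair followed with 10 of 33 (30.3%), serine, glycine and nucleotide synthesis with 8 of 30, DNA methylation and chromatin with 6 of 30, formative genes with 2 of 13, mitosis with 5 of 35 and pluripotency factors with 4 of 40. The lists of Nodal, FGF and LIF signals (28 genes), germ cell genes (25), glycolysis (23), cholesterol synthesis (23) and epithelial junctions (38) held no member, and neither did the lone tested gene of the 2-cell list or any of the marker lists. The median change of the epithelial junction list was upward in every line, from 0.72 to 2.7. These are counts of genes chosen by the fall itself, with no test.

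The lists that kept few members differed by line. The criterion was met by 32 of 35 mitosis genes in WT#1-4, 30 in Nox4-/- #5-8 and 33 in Nox4-/- #5-23, but by 5 in WT#20D-17, where the median change was -0.35. The pluripotency list went the other way, with 32 of 40 genes in WT#20D-17 and 12, 11 and 11 in WT#1-4, Nox4-/- #5-8 and Nox4-/- #5-23. Replication genes met it in all lines, with 42, 29, 36 and 42 of 44 in WT#1-4, WT#20D-17, Nox4-/- #5-8 and Nox4-/- #5-23.

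Hand sorting after the values were seen placed 280 members in 13 groups by known function, each gene in 1 group. Ribosome biogenesis held 53, splicing and RNA binding 40, DNA replication 39, chromatin and histone chaperones 26, DNA repair 24, mitosis 23, and genes of signalling, membranes and neurons 23. Smaller groups were tRNA and mitochondrial RNA (16), nucleotide and one-carbon enzymes (11), pluripotency and developmental regulators (10), nuclear pore and transport (9), fatty acid synthesis (3: Fasn, Elovl4 and Elovl6) and chaperones (3). The remaining 97 have no group. By biotype, 358 members (95.0%) were protein coding, beside 86.0% of tested genes, and 9 were lincRNAs.

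Replication genes fell furthest of the larger groups, with a median mean change of -2.24. All 6 subunits of the MCM helicase were members, with median changes of -3.15, -1.81, -1.84 and -2.55 in WT#1-4, WT#20D-17, Nox4-/- #5-8 and Nox4-/- #5-23. Mcm5 (ENSMUSG00000005410, chromosome 8, 75109569 to 75128439, GRCm38) stood at 327, 276, 278, 138 and 22.2 CPM on days 0, 3, 5, 7 and 14 in WT#1-4. In WT#20D-17 it stood at 377, 241, 141, 160 and 105 CPM, in Nox4-/- #5-8 at 309, 268, 176, 129 and 67.7 CPM, and in Nox4-/- #5-23 at 347, 240, 134, 88.5 and 46.8 CPM. The 4 lines started close together, WT#1-4 ended lowest and WT#20D-17 highest.

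Mcm6 went from 318 to 39.4, 447 to 122, 344 to 117 and 336 to 67.8 CPM, and Mcm7 from 356 to 71.7, 613 to 142, 414 to 157 and 576 to 136 CPM, in the line order WT#1-4, WT#20D-17, Nox4-/- #5-8 and Nox4-/- #5-23, which is used from here on. Pcna, the sliding clamp, went from 409 to 74.3, 462 to 99.1, 595 to 232 and 525 to 180 CPM. Rrm2, the small subunit of ribonucleotide reductase, went from 291 to 24.2, 142 to 39.8, 374 to 88.4 and 495 to 60.7 CPM. Rrm2 and Pcna show the spread between lines: WT#20D-17 started lowest for Rrm2, and Nox4-/- #5-8 ended highest for both. Other complexes were represented in part: 2 of 6 origin recognition subunits (Orc1 and Orc2), 2 of 5 replication factor C subunits (Rfc3 and Rfc5) and 1 of 4 GINS subunits (Gins1).

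Dna2, a nuclease and helicase that trims Okazaki fragments, had the largest mean fall of the group (-3.19, SD 0.747, n = 4 lines), from 35.8 to 1.04, 61.2 to 11.1, 42.2 to 4.1 and 60.7 to 5.89 CPM. Among repair genes, Brca2, which acts in homologous recombination, went from 58.0 to 6.19, 63.3 to 12.3, 51.9 to 9.8 and 89.5 to 22.4 CPM. The mean changes of the nuclease Exo1 and of Fancd2, a hub of crosslink repair, were -2.72 and -1.63. Ankle1, an endonuclease, was among the 10 deepest falls of all members (-2.86).

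**Figure D2:**
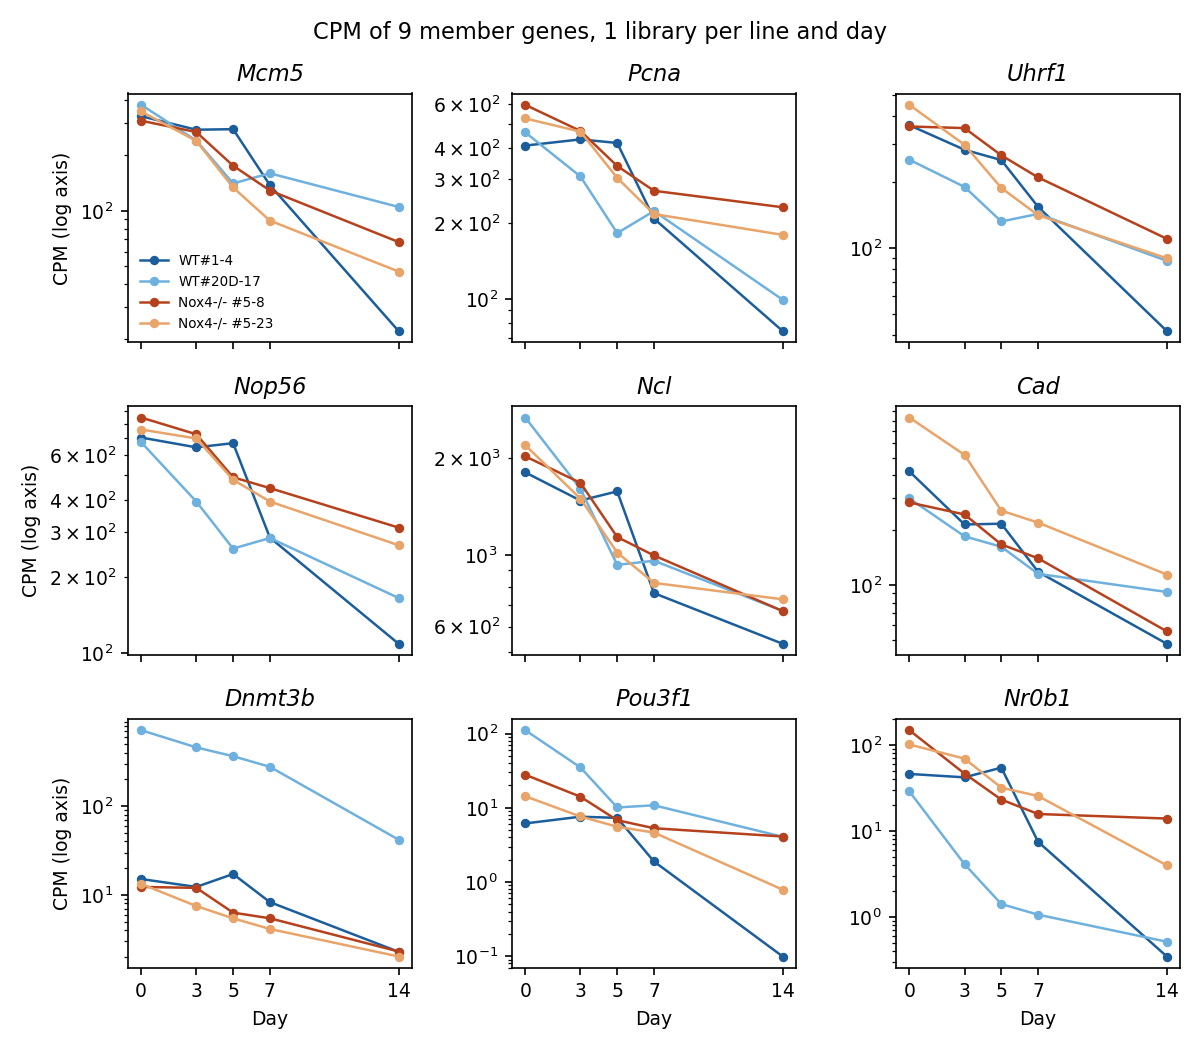
CPM on a log axis against day for 9 members, 1 line per iPSC line and 1 library per point. All 9 end below their day 0 level in every line, WT#1-4 is nearly level from day 3 to day 5 in most panels, and Dnmt3b starts at 719 CPM in WT#20D-17 against 12.3 to 15.1 CPM in the other lines.

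Of the chromatin genes, Uhrf1, which recruits the maintenance methylase to newly copied DNA, went from 364 to 41.6, 253 to 87.2, 359 to 110 and 451 to 89.6 CPM. Hells, a remodeler needed for DNA methylation, went from 132 to 11.5, 405 to 54.8, 169 to 19.7 and 185 to 29.3 CPM. Its partner Cdca7 went from 194 to 21.1, 141 to 11.5, 182 to 54.1 and 204 to 39.4 CPM. Bend3, a heterochromatin protein, had a mean fall of -3.06 (SD 0.35, n = 4). Setdb1, a histone H3 lysine 9 methylase, was near the threshold, with a mean of -1.11 (SD 0.124), and the histone demethylase Kdm2b had -1.46 (SD 0.141). The remaining enzyme of the list, Dnmt3b, is described with the formative genes.

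Ribosome biogenesis members had a median mean change of -1.69. Nop56, a core protein of box C/D particles, stood at 705, 645, 670, 285 and 109 CPM on days 0, 3, 5, 7 and 14 in WT#1-4 and at 676, 395, 258, 284 and 165 CPM in WT#20D-17. In Nox4-/- #5-8 it stood at 845, 726, 492, 446 and 312 CPM, and in Nox4-/- #5-23 at 758, 699, 481, 395 and 266 CPM. WT#1-4 kept its level until day 5, when WT#20D-17 was already at its day 7 level.

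Ncl (nucleolin) went from 1810 to 531, 2680 to 672, 2030 to 671 and 2200 to 730 CPM, and Ddx21, an RNA helicase of the nucleolus, from 504 to 81.5, 474 to 73.8, 465 to 116 and 599 to 193 CPM. Mybbp1a, a nucleolar protein, had a mean change of -1.71, and Npm1 (nucleophosmin) of -1.26 (SD 0.156), though Npm1 reads may be shared with its processed copies. Polr1a and Polr1b, the large subunits of RNA polymerase I, were both members, as were 4 of 10 Utp genes of the small subunit processome and 4 of 8 Nol genes. None of 81 ribosomal protein genes was a member, and their median mean change was -0.03.

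Splicing and RNA-binding members included 5 of 11 SR splicing factors (Srsf1, Srsf2, Srsf3, Srsf6 and Srsf10) and 6 of 20 hnRNP genes, which package nascent RNA. Srsf1 went from 536 to 212, 467 to 225, 562 to 181 and 580 to 174 CPM. Members also included 10 of 52 DEAD and DEAH box helicases, 4 of 20 nucleoporins and 4 of 20 centromere proteins. By contrast 2 of 371 Zfp zinc finger genes and 4 of 259 solute carriers were members, 0.539% and 1.54%. These families were taken by symbol after the values were seen and carry no test.

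Enzymes that supply nucleotides and one-carbon units were members beside the replication genes. Cad, which carries the first steps of pyrimidine synthesis, went from 421 to 47.4, 299 to 91.4, 284 to 55.5 and 833 to 114 CPM. The purine enzymes Gart, Ppat and Adsl had mean changes of -2.31, -1.85 and -1.93, and the folate enzyme Mthfd1 of -1.79. Gldc, of the glycine cleavage system, had -3.02 (SD 0.738), and in WT#20D-17 it kept 155 to 197 CPM from day 3 to day 7 before standing at 43.5 CPM on day 14. The 5 members on the mitosis list, a shorter set than the hand-sorted group, were Ccnb1 (cyclin B1), the spindle motor Kif11 and the checkpoint genes Bub1, Bub1b and Mad2l1, with mean changes of -1.87, -1.82, -1.73, -1.64 and -1.77. In WT#20D-17 their day 14 values lay near those of day 5: Ccnb1 stood at 245 and 249 CPM and Bub1b at 142 and 144 CPM.

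The deepest fall of all was that of Nr0b1 (ENSMUSG00000025056, chromosome X, 86191764 to 86195947, GRCm38), an orphan nuclear receptor of the pluripotency network, with a mean of -4.27 (SD 0.74, n = 4). It stood at 45.9, 41.9, 54.3, 7.46 and 0.346 CPM in WT#1-4 and at 28.8, 4.1, 1.41, 1.06 and 0.514 CPM in WT#20D-17. In Nox4-/- #5-8 it stood at 148, 46.3, 23.1, 15.7 and 13.9 CPM, and in Nox4-/- #5-23 at 101, 69.1, 31.8, 25.4 and 3.97 CPM. It was above 20 CPM on day 0 in all 4 lines, including those without Nanog or Esrrb.

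Pluripotency members also included Rif1, a regulator of replication timing (mean -1.95), and Lin28b, an inhibitor of let-7 processing (-2.29). Dnmt3b, a de novo DNA methylase, went from 719 to 41.9 CPM in WT#20D-17 and from 15.1 to 2.28, 12.3 to 2.3 and 13.3 to 2.02 CPM in WT#1-4, Nox4-/- #5-8 and Nox4-/- #5-23. Pou3f1, a POU factor of the formative epiblast, had a mean fall of -3.19 and went from 111 to 4.06 CPM in WT#20D-17 and from 6.15 to 0.099 CPM in WT#1-4. Its day 14 value in WT#1-4 is 2 counts. The last of the 10 deepest falls were Crmp1, a cytoskeletal protein of growing axons (-3.34), Kbtbd8, a ubiquitin ligase adaptor (-3.15), and Elavl2, a neuronal RNA-binding protein (-2.9). Mir17hg, the host RNA of the miR-17 cluster, was a lincRNA member (-2.66); mature miRNAs were not measured.

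**Figure D3:**
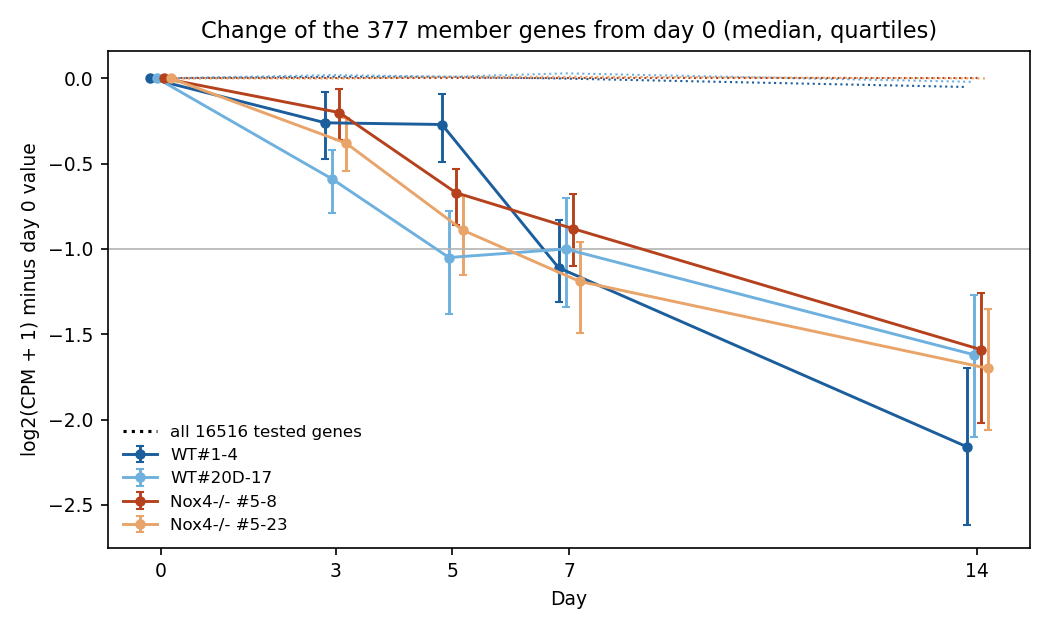
Median change of log2(CPM + 1) from day 0 over the 377 members (points, with lower and upper quartiles as bars) and over all 16516 tested genes (dotted) by day and line. The members' medians reach -1.59 to -2.16 on day 14, and the dotted lines stay within 0.05 of 0.

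The day of the fall differed between lines. In WT#1-4 the median change from day 0 was -0.26 on day 3, -0.27 on day 5, -1.11 on day 7 and -2.16 on day 14. In WT#20D-17 it was -0.59, -1.05, -1.0 and -1.62. In Nox4-/- #5-8 it was -0.2, -0.67, -0.88 and -1.59, and in Nox4-/- #5-23 it was -0.38, -0.89, -1.19 and -1.7. The medians of WT#1-4 thus differed by 0.01 between days 3 and 5 and were lower at day 7, those of WT#20D-17 were nearly level from day 5 to day 7, and those of the Nox4-/- lines were lower at each day. From day 7 to day 14, 371, 360, 368 and 362 members were lower still in WT#1-4, WT#20D-17, Nox4-/- #5-8 and Nox4-/- #5-23. The criterion itself asked for a low day 14 value in every line, so these counts are largely set by the choice.

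The midpoint day is the first sampled day at or below the midpoint of a gene's own day 0 and day 14 values that stays there on later days. In WT#1-4 it was day 7 for 166 members and day 14 for 198, with 8 on day 3 and 5 on day 5. In WT#20D-17 it was day 3 for 57, day 5 for 171, day 7 for 29 and day 14 for 120. In Nox4-/- #5-8 it was day 3 for 4, day 5 for 114, day 7 for 115 and day 14 for 144, and in Nox4-/- #5-23 the numbers were 16, 195, 140 and 26. These counts depend on the scale, since the median share of the fall reached by day 7 in WT#1-4 was 49.0%. With the midpoint taken on linear CPM, 337 members in place of 179 had passed it by day 7 in WT#1-4, and 38, 170, 20 and 53 in place of 8, 57, 4 and 16 by day 3 in the 4 lines. On the log2 scale the midpoint day was the same in all 4 lines for 2 members, St8sia2, which adds polysialic acid, and Plch1, a phospholipase C, both on day 14. The midpoint was passed by day 7 in all 4 lines for 70 members. Each line has 1 library a day, so differences between lines in timing carry no test.

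**Figure D4:**
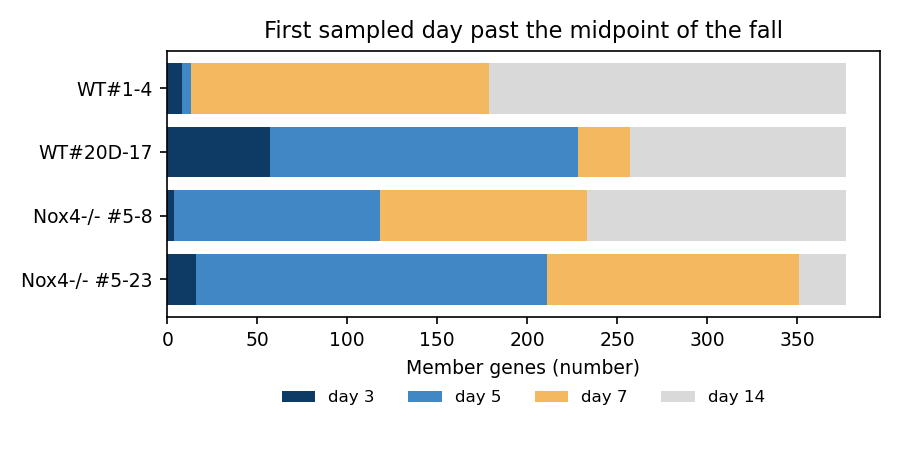
Stacked bars give, for each line, how many of the 377 members passed the midpoint of their fall first on day 3, 5, 7 or 14. Day 5 holds 5 members in WT#1-4 and 195 in Nox4-/- #5-23, and day 14 holds 198 and 26.

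On the log2 scale, the order of functional groups differed between lines. In WT#1-4, 83.0% of ribosome biogenesis members had passed the midpoint of their fall by day 7, against 10.3% of replication members and 13.0% of mitosis members. In Nox4-/- #5-8 the order was the opposite, with 50.9% of ribosome biogenesis and 82.1% of replication members. In Nox4-/- #5-23 the shares were 100% and 97.4%, and in WT#20D-17 they were 83.0% and 76.9%. The tRNA and mitochondrial RNA group followed ribosome biogenesis in WT#1-4, with 93.8% by day 7. With the midpoint on linear CPM, an alternative chosen after seeing the data, the gap in WT#1-4 closed to 100% of ribosome biogenesis and 97.4% of replication members, and in Nox4-/- #5-8 the shares were 81.1% and 97.4%. The midpoints use the day 0 and day 14 libraries that chose the genes, and these shares are a description.

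The widest differences between lines in the share of the fall completed by day 7 were in Gm10184, Chrna7, a nicotinic receptor subunit, Hhex, a homeobox factor, 2500004C02Rik and Utp14b, a small subunit processome factor. Hhex in WT#20D-17 stood at 9.96, 15.6, 20.2, 16.6 and 2.16 CPM on days 0, 3, 5, 7 and 14, and in WT#1-4 at 4.65, 1.48, 0.923, 1.25 and 0.94 CPM. Utp14b in WT#20D-17 stood at 80.4, 91.4, 115, 106 and 33.7 CPM, and in Nox4-/- #5-23 at 27.9, 21.2, 7.68, 7.39 and 6.45 CPM. Both were higher on days 3, 5 and 7 than on day 0 in WT#20D-17 and lower in the other line.

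The criterion on the fall did not use days 3, 5 and 7, so the change between them was tested. Those libraries entered only the mean count minimum and the scaling. Genes chosen to fall by day 14 in every line are likely to be lower on a later day between. The calls thus place part of the fall in this interval and are no independent evidence of the fall. Between day 3 and day 7, 305 of the 377 members (80.9%) were lower at day 7 and 0 were higher, by edgeR's quasi-likelihood test with line as a block, a Benjamini-Hochberg FDR under 0.05 over all tested genes and 12 libraries. Of all tested genes 9.61% were lower and 9.91% higher. All 377 members had a negative fitted change, with a median of -0.7 against 0.03 over all tested genes, and 349 (92.6%) had an unadjusted p under 0.05, against 35.3% of tested genes. DESeq2 called 323 lower and 0 higher, beside 10.8% and 14.1% of tested genes. Of the 518 risers, 397 were higher at day 7 and 0 lower.

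The calls rested on both Nox4-/- lines: without Nox4-/- #5-8 the count was 0 (305 at an unadjusted p under 0.05, median -0.68) and without Nox4-/- #5-23 it was 1 (300, median -0.62), while it was 248 without WT#1-4 and 349 without WT#20D-17. It was 0 without the line block (260 at an unadjusted p under 0.05) and 3 with all 20 libraries in the fit. Of all tested genes, 0 were lower without Nox4-/- #5-8, 4 without Nox4-/- #5-23, 837 without WT#1-4 and 2327 without WT#20D-17. Without the line block 0 tested genes were lower, and with all 20 libraries 3. In single lines, 373 members were lower at day 7 than at day 3 in WT#1-4, 331 in WT#20D-17, 374 in Nox4-/- #5-8 and 373 in Nox4-/- #5-23, and 324 (85.9%) were lower in all 4, beside 18.9% of all tested genes.

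The members with the lowest p-values were Cdca7, Gtse1, which binds microtubules and restrains p53, Bub1b, Lbr, the lamin B receptor, and Crmp1. By edgeR's quasi-likelihood test Cdca7 changed by -1.01 (log2, SE 0.123, FDR = 0.0034), with -0.94, -1.13, -0.83 and -1.07 on the log2(CPM + 1) scale in WT#1-4, WT#20D-17, Nox4-/- #5-8 and Nox4-/- #5-23. Bub1b changed by -0.75 (SE 0.0942, FDR = 0.0034), Gtse1 by -0.81 (SE 0.102), Lbr by -0.71 (SE 0.0896) and Crmp1 by -1.47 (SE 0.189). All 5 were lower in 4 of 4 lines. Among the genes named above, Mcm5 changed by -1.01 (SE 0.176, FDR = 0.00668), Nop56 by -0.77 (SE 0.177, FDR = 0.0153), Nr0b1 by -1.79 (SE 0.366, FDR = 0.0112) and Dnmt3b by -0.83 (SE 0.182, FDR = 0.0133).

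By group, 38 of 39 replication members, 23 of 23 mitosis members, 49 of 53 ribosome biogenesis members, 38 of 40 splicing members and 21 of 24 repair members were lower at day 7. The median fitted change was -0.88 for replication, -0.76 for mitosis, -0.71 for ribosome biogenesis and -0.6 for splicing. Of the signalling, membrane and neuronal members 13 of 23 were called, with a median of -0.7; differences in share between groups were not tested.

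**Figure D5:**
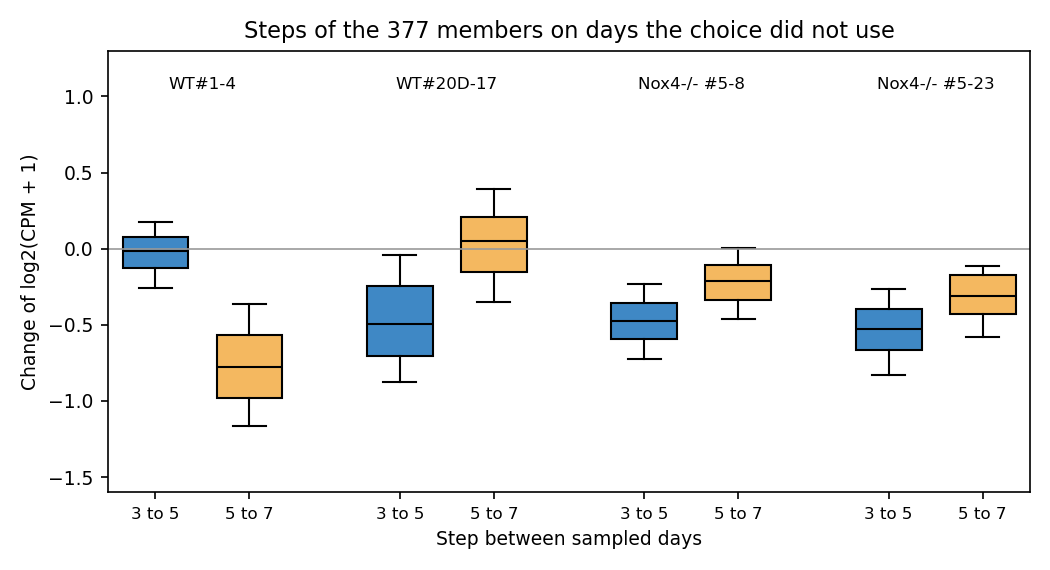
Boxes (quartiles, with whiskers from the 10th to the 90th percentile) of the change of log2(CPM + 1) over the 377 members from day 3 to 5 and from day 5 to 7 in each line. WT#1-4 sits at 0 in the first step and lowest in the second, and WT#20D-17 has a median just above 0 in the second.

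The steps within this interval differed by line. From day 3 to day 5 the median change of members was -0.01 in WT#1-4, -0.5 in WT#20D-17, -0.47 in Nox4-/- #5-8 and -0.53 in Nox4-/- #5-23. From day 5 to day 7 it was -0.77, 0.05, -0.21 and -0.31. Over all tested genes every one of these medians lay between 0 and 0.01 in size. In WT#20D-17, 220 members (58.4%) were higher at day 7 than at day 5 and 41.6% were lower. Of all tested genes 46.3% were lower in that step, so the members' share lay near that of all genes. For day 5 against day 3 the quasi-likelihood test called 0 members, beside 0.0% of tested genes lower and 0.00605% higher, and 204 members (54.1%) had an unadjusted p under 0.05, against 13.1% of tested genes. DESeq2 called 34 members lower and 0 higher, beside 0.424% and 1.61% of tested genes. For day 7 against day 5 the quasi-likelihood test called 0 members, beside 0.0% of tested genes in either direction. In that test 166 members (44.0%) had an unadjusted p under 0.05, against 9.5% of tested genes. DESeq2 called 4 members lower and 0 higher, beside 0.0908% and 0.254% of tested genes.

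Some marker sums of other cell types moved along with the days, those of fibroblast, endoderm and mesoderm most in WT#20D-17. On day 14 the fibroblast, endoderm and mesoderm sums were higher in WT#20D-17 than in the other lines. The summed fibroblast markers in WT#20D-17 rose from 24.7 CPM on day 0 to 2950 CPM on day 14, with 410 on day 5 and 2620 on day 7. The sum stayed between 66.6 and 128 CPM in WT#1-4, 11.9 and 29.1 CPM in Nox4-/- #5-8, and 6.29 and 22.1 CPM in Nox4-/- #5-23. The primitive endoderm sum in WT#20D-17 went from 404 CPM on day 0 to 2750 on day 7 and 2130 on day 14. The mesoderm sum went from 4.84 to 886 and 461 CPM on the same days, so both were highest on day 7. Of the 10 fibroblast markers, Lum and Twist2 were under 1 CPM on every day in the other 3 lines, while 8, 8 and 7 of the 10 stood at 1 CPM or more on day 0 in WT#1-4, Nox4-/- #5-8 and Nox4-/- #5-23. In the Nox4-/- lines 5 and 4 of the 10 were lower by 1 or more at day 14, and the sums went from 20.4 to 11.9 and from 22.1 to 12.1 CPM. The primitive endoderm sum stayed between 34.8 and 130 CPM in WT#1-4. It stayed between 20.1 and 45.0 CPM in Nox4-/- #5-8 and between 54.3 and 87.1 CPM in Nox4-/- #5-23. The mesoderm sum stayed between 2.21 and 16.1 CPM in Nox4-/- #5-8 and between 1.69 and 3.24 CPM in Nox4-/- #5-23. In WT#1-4 the mesoderm sum went from 7.38 to 39.5 CPM, the neural sum from 355 to 541 CPM and the trophoblast sum from 3.88 to 51.3 CPM. The trophoblast sum also went from 37.6 to 158 CPM in WT#20D-17, from 10.7 to 25.3 CPM in Nox4-/- #5-8 and from 12.4 to 14.3 CPM in Nox4-/- #5-23, and the neural sum from 73.1 to 36.9, 184 to 156 and 185 to 112 CPM in these 3. The mitochondrial share of counts went from 2.14% to 1.41%, 1.66% to 0.498%, 2.68% to 1.74% and 2.03% to 2.22% in WT#1-4, WT#20D-17, Nox4-/- #5-8 and Nox4-/- #5-23. The part of these shifts in the fall of the members was not tested.

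Genotype was compared with the lines and the tool of the study, edgeR's exact test with the 5 days taken as replicates of WT#1-4 and the 2 Nox4-/- lines. An FDR under 0.01 over the tested genes was used here. The study's text gives different FDR thresholds in different places, and its tests also kept genes of lower counts. Of the 377 members 2 were lower and 6 higher in Nox4-/- cells, beside 6.99% lower and 3.66% higher of all tested genes. The share called was 2.12% of members against 10.7% of tested genes. The exact test has no day term, so the members' own fall over the days counts as spread within each genotype. Their low share in this test therefore cannot be read as less difference between genotypes. The criterion also asked for a fall in every line of both genotypes, and its part in the low share was not tested. With day as a replicate block in a quasi-likelihood test, 6 members were lower and 12 higher, beside 1166 and 673 of the 16516 tested genes. The difference in share was not tested. The libraries of days 3, 5 and 7 were not used by the criterion on the fall. With these libraries alone, 7 members were lower and 8 higher, beside 6.93% lower and 3.85% higher of all tested genes. With counts summed per line, 2 lines against 2, no gene was called (0.0% in either direction, edgeR quasi-likelihood test), and 6 members (1.59%) had an unadjusted p under 0.05, against 6.94% of tested genes. Each genotype is 1 or 2 lines here, so genotype and line cannot be told apart in the pooled test.

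Slfn9, of the Schlafen family, was 3.53 higher (log2, FDR = 1.16e-08, exact test) in Nox4-/- cells, with 2.19 CPM on day 0 in WT#1-4 and 16.1, 37.4 and 42.1 CPM in WT#20D-17, Nox4-/- #5-8 and Nox4-/- #5-23. Mid1, a microtubule-bound ubiquitin ligase, was 1.43 higher (FDR = 0.00118), but its fitted difference was 0.01 against WT#20D-17. Mthfd2l, a mitochondrial folate enzyme, was 1.2 higher (FDR = 0.00254). Auts2, a neurodevelopmental regulator, was 2.06 lower on the log2 scale (a difference of -2.06, FDR = 0.00311), with 171 CPM on day 0 in WT#1-4 and 21.4, 16.7 and 40.8 CPM in the other lines, and Map7d2, a microtubule-binding protein, differed by -1.13 (FDR = 0.00663). With WT#20D-17 as the wild type these last 2 differed by -0.08 and -0.22. The rule that named these 5 asked that their Nox4-/- libraries of days 3, 5 and 7 do not overlap those of WT#1-4, so the lack of overlap is no further evidence.

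The change from day 3 to day 7 was also compared between genotypes. The interaction of day and genotype was past an FDR of 0.05 for 0 of 377 members in the quasi-likelihood fit (13 at an unadjusted p under 0.05, 3.45%, against 6.86% of all tested genes). In that fit 0.0% of tested genes were called in either direction. DESeq2 called 0 members (18 at an unadjusted p under 0.05), beside 18 lower and 27 higher of the 16516 tested genes. The median interaction was -0.17 over members.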

How the data were processed

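Libraries were stranded poly(A) mRNA, read in pairs. The authors trimmed the reads, aligned them to the mouse genome (mm10/GRCm38, Ensembl annotation) with STAR 2.6.0c and deposited RSEM 1.3.1 expected counts per gene, which can be fractional where reads are shared between copies or isoforms; 135 members had such values. The expected counts were rounded, scaled by TMM (edgeR 4.0.16, R 4.3.3) and given as CPM, and log2 values used a pseudocount of 1. Gene positions came from GENCODE M21 and promoter letters from RefSeq windows (GRCm38.p6).

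The members, the lists and the tests were chosen with earlier results of these data known. Day 0 and day 14 values, with the mean count over all libraries, chose the members, and the change between those days was given no test. The pooled genotype tests and the fit of all 20 libraries did include the libraries of days 0 and 14. Their counts of members are therefore not independent of the choice. Days 3, 5 and 7 were compared with edgeR's quasi-likelihood test (line as a block, genes with a mean count of 10 or more), and genotype with edgeR's exact test at an FDR under 0.01. DESeq2 1.42.0, other scalings, filters, pseudocounts and leaving out each line were alternatives, and the tests were tried on simulated counts. Lines are clones, with 1 library per line and day. With the line as a block, the errors of the day tests are the spread of the day changes between lines, not of the lines' levels. In the pooled genotype test the errors also hold the spread between days.

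Genes were named by a rule: up to 5 members per list with the highest day 0 CPM, the 10 largest mean falls, members with the earliest, latest and most variable falls, the lowest p-values of each test, and the 3 genes on either side of the threshold; some genes that the rule names are not reported here. Families by symbol, functional groups and their other examples were chosen after the values were seen.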

Additional observations from a re-analysis of the deposited data

How the results depend on the processing

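Leaving out 1 line at a time gave 438 to 765 falling genes in place of 377 (765 without WT#20D-17 and 603 without Nox4-/- #5-8), 0 to 349 members lower at day 7 than at day 3 in place of 305 (0 higher throughout), and 1 lower and 4 to 7 higher members in Nox4-/- cells in place of 2 and 6 when a Nox4-/- line was left out. Of all tested genes, 0 to 2327 were lower at day 7 in these fits. In Nox4-/- cells 960 to 1135 tested genes were lower and 504 to 799 higher. A threshold of -2 kept 23 members and gave 27.7% in place of 49.3% for WT#20D-17 as the left-out line. On the linear CPM scale the numbers past the midpoint of the fall by day 3 were 38, 170, 20 and 53 in WT#1-4, WT#20D-17, Nox4-/- #5-8 and Nox4-/- #5-23 in place of 8, 57, 4 and 16, and 337 by day 7 in WT#1-4 in place of 179. Counting the first day with a fall of 1 gave 16 by day 3 in WT#1-4 and 141 by day 7 in Nox4-/- #5-8 in place of 233. Upper quartile scaling gave 88 by day 3 in WT#20D-17, and a pseudocount of 4 gave 8 in Nox4-/- #5-8. For day 7 against day 3, the fit without the line as replicate block called 0 members, the fit of all 20 libraries 3 and an FDR under 0.01 128. For genotype, members lower and higher were 20 and 29 against WT#20D-17, 9 lower with both wild type lines, 7 lower with days 3, 5 and 7 only, 1 lower with no filter, 6 and 12 with day as a replicate block, and 0 and 0 with the line as the unit. Of the 16516 tested genes, 3908 were lower and 3150 higher against WT#20D-17, and 2659 were lower with both wild type lines. With days 3, 5 and 7 only 1145 were lower, and 1344 of 33696 were lower with no filter. With day as a replicate block 1166 were lower and 673 higher. With the midpoint on linear CPM, chosen after seeing the data, 97.4% in place of 10.3% of replication members in WT#1-4 and 81.1% in place of 50.9% of ribosome biogenesis members in Nox4-/- #5-8 had passed it by day 7. The causes were not tested. The other 72 of these comparisons stayed within 1.5 times, among them the DESeq2 counts for day 7 against day 3, genotype and their interaction, and no result among them changed direction; DESeq2 called more members than edgeR for the single steps, 34 for day 5 against day 3 and 4 for day 7 against day 5 in place of 0. Of the genes named for a test, 59 alternatives kept the call and 36 lost it. Depth was 20294981 counts or more per library, and values under 1 CPM rest on few counts.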
